A study of Homo sapiens with 6 samples.

Results

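NOTCH signalling was followed at the transcript level in OVCAR8, an established human ovarian carcinoma cell line, through 35 genes among the 62700 listed in the count tables: 4 receptors, 5 ligands, 3 Fringe glycosyltransferases, 3 gamma-secretase subunits, 4 genes of the nuclear complex, 2 Numb genes, 4 Deltex genes and 10 genes of the HES/HEY group with NRARP. The genes were chosen by name and role, with earlier results of these data known. The sequenced cells were all wild-type OVCAR8 that had spent a night without serum: the 3 Leptin libraries come from cells given leptin, a hormone of fat tissue, for 24 h (100 ng/ml), and the 3 Control libraries from cells given PBS. Both groups are of 1 cell line, and the labels leave it unsaid whether the repeats were grown apart; a p-value here reflects the spread among these 6 libraries, part of which may be technical.

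NOTCH receptors are cell-surface proteins that are activated by ligands of the Jagged and Delta-like families on a neighbouring cell. Ligand binding leads to cleavage of the receptor, last by gamma-secretase, and the freed intracellular domain enters the nucleus. There it joins the DNA-binding protein RBPJ and a Mastermind coactivator to switch on target genes, among them several HES and HEY transcription factors. Fringe enzymes add sugars to the receptor and so tune which ligands it answers to, while Numb and Deltex proteins act on receptor trafficking and turnover. Stem-like growth of ovarian cancer cells, the subject named in the study's design text, is one setting in which the pathway has been studied.

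All 35 genes were found in the tables, and 31 had enough counts to be tested. The text uses CPM (counts scaled to library size) to compare libraries and FPKM (CPM per kilobase of exon) to compare genes. Leptin libraries had more of the HES6, HES7, RFNG, DTX1 and DTX4 transcripts than Control libraries, and these 5 of 31 genes (16.1%) passed edgeR's quasi-likelihood test at an adjusted p under 0.05. Of all 15685 genes tested, 5.71% passed in that direction. HES7 is among the 5 although only its Leptin libraries reached the minimum count for testing, and without it 4 of 30 (13.3%) passed. None of the 31 passed as lower, against 4.09% of all genes; 2 had an unadjusted p under 0.05 as lower (NCSTN and NUMB), as did 12.2% of all genes. DESeq2 called 6 as higher (HEYL besides the 5, against 8.63% of all genes) and 0 as lower (5.72%), and limma-voom called 3 as higher (RFNG, DTX4 and HES7, against 4.5%) and 0 as lower (3.95%). The median log2 fold change of the 31 genes was 0.43, against 0.01 over all tested genes, and 26 of the 31 had a positive sign (21 when scaled by library totals alone and 20 after the GC removal described below). The Leptin libraries lay wholly above the Control libraries for 12 of the 31 (38.7%), against 16.0% of all genes, and wholly below them for NCSTN and NUMB, against 16.2%.

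By role, the calls fell among genes that modify receptors (1 of 3 Fringe and 2 of 4 Deltex genes) and among the HES/HEY/NRARP genes (2 of 9 tested, HES6 and HES7), while 0 of 2 tested receptors, 0 of 5 ligands, 0 of 3 gamma-secretase subunits, 0 of 3 tested nuclear genes and 0 of 2 Numb genes passed. Of all tested genes 5.71% passed as higher, and roles of 2 to 9 tested genes are too small to set against that share. After the GC removal described below no Fringe or Deltex gene passed, HES6 and HES7 did, and the receptor NOTCH1 passed as lower. HES1, a direct target of the RBPJ complex in many cell types, did not pass. The members are rich in G and C: their median GC content was 59.0%, against 48.4% over all tested genes, and fold changes in these libraries moved with GC content, as given below with the values after its removal. No call of the 5 genes held in every fit that left out 1 library, also given below.

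Promoters of 6 HES and HEY genes are shown to set genes that rose beside genes that did not pass, both with and without the letters searched for. Each window covers 250 bases before and 50 bases after the transcription start in RefSeq (GRCh38.p14), 5′ to 3′ on the gene's strand, with the letters GTGGGAA, a core of RBPJ sites, in capitals, or TTCCCAC where it stands on the other strand. HES6 (chr2:238239989-238240288, minus strand) and HES7 (chr17:8124057-8124356, minus strand) passed the test. HES1 (chr3:194135898-194136197, plus strand), HES4 (chr1:1000048-1000347, minus strand), HEYL (chr1:39639594-39639893, minus strand) and HES2 (chr1:6419870-6420169, minus strand) did not.
HES6: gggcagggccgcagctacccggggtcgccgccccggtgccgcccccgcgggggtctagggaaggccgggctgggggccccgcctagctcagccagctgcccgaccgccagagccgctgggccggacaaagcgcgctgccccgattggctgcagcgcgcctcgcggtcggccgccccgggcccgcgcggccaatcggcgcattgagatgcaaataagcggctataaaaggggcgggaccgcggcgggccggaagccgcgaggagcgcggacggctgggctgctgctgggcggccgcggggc
HES7: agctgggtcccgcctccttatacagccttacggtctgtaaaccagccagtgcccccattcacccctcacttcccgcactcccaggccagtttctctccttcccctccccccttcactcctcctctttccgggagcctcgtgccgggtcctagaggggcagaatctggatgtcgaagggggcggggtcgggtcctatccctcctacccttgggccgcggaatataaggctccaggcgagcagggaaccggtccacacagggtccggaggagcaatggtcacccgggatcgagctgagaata
HES1: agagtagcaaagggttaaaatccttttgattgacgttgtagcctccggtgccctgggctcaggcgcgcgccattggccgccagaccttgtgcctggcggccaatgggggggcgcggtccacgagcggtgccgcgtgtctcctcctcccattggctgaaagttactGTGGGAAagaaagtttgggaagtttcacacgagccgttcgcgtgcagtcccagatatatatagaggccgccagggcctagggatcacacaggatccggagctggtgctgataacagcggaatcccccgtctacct
HES4: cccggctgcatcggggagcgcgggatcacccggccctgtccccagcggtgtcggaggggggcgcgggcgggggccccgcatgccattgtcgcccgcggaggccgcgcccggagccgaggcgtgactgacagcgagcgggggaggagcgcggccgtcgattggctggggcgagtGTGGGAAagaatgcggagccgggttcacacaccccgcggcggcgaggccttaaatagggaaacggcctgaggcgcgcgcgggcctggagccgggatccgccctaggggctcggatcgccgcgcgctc
HEYL: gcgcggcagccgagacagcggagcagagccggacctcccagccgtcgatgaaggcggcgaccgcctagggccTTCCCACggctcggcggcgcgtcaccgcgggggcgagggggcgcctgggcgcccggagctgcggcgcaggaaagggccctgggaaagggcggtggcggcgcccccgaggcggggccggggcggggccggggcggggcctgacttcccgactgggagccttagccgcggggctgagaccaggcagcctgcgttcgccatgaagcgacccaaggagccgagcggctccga
HES2: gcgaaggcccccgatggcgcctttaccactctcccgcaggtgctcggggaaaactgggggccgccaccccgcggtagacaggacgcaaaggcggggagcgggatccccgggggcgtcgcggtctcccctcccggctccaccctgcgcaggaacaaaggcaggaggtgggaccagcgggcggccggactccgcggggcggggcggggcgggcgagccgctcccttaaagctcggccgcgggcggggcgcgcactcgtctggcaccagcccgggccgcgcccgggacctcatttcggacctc

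A window was found for 29 of the 35 genes. GTGGGAA, searched on both strands, occurred in the windows of HES1, HES4, HES5, HEY2, HEYL and RBPJ, and in 6.25% of the 35116 promoters in the table. The windows of HES6 and HES7 did not contain these letters, nor did those of HES2 and NRARP, which did not pass. The letters CACGNG, of which HES and HEY proteins can bind several forms, occurred in the windows of HES1 and HES7 among those shown, and in 30.5% of all promoters. These matches describe letters, and no binding was measured.

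Totals assigned to genes lay between 15609425 and 18577775 counts per library. On the first principal component, which held 49.6% of the variance, Leptin replicate 1 stood at -2.15, between Leptin replicates 2 and 3 (46.3 and 39.6) and the Control libraries (-31 to -23.6). The median SD of log2 CPM per gene was 0.24 in Leptin and 0.12 in Control libraries. The ovarian epithelial markers had a summed level of 3490 to 3890 CPM in Leptin and 3070 to 3340 CPM in Control libraries, led by KRT8, and 0 of 7 tested passed. PAX8 averaged 364 CPM in both groups, while MUC16 averaged 0.138 CPM in Leptin and 0.159 CPM in Control libraries and CDH1 0.731 and 0.247 CPM. Immune markers summed to at most 0.0577 CPM in Leptin and 0.264 CPM in Control libraries, with PTPRC and CD3E at 0 counts. Endothelial markers summed to 2.07 to 3.86 CPM in Leptin and 3.27 to 5.09 CPM in Control libraries. Fibroblast markers, nearly all of it COL1A1, summed to 358 to 521 CPM in Leptin and 461 to 657 CPM in Control libraries, and 0 of 6 passed. Their part in the results was not tested.

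**Figure D1:**
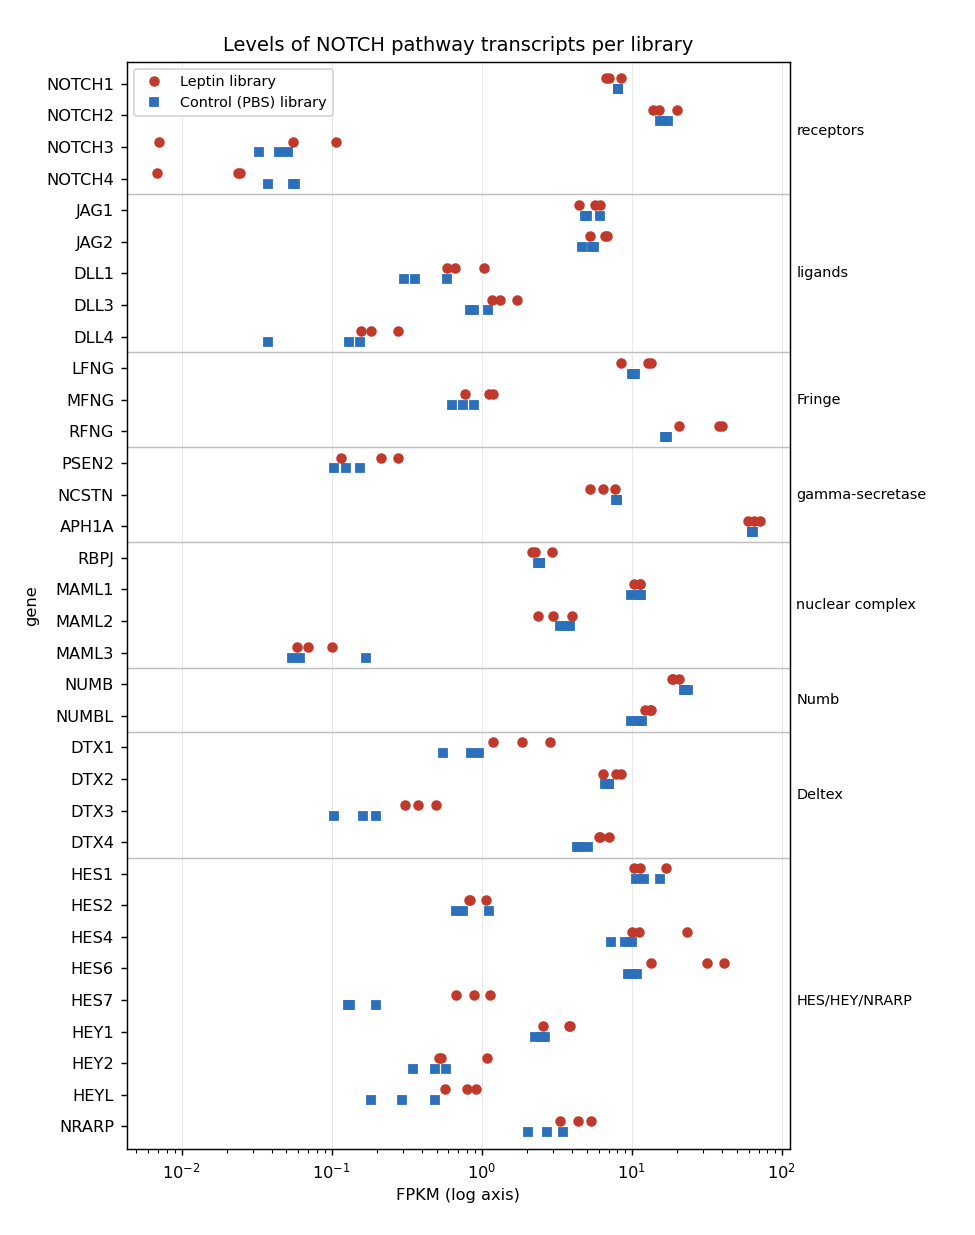
Levels of 34 members in each library, in FPKM on a log axis, grouped by role; circles are the 3 Leptin and squares the 3 Control libraries, and HES5, with 0 counts, is not drawn. APH1A was the most abundant member in both groups, at 65.4 FPKM on average in Leptin and 63.5 FPKM in Control libraries, and NOTCH3 and NOTCH4 lay near the bottom.

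Among the receptors, OVCAR8 cells carried transcripts of NOTCH2 and NOTCH1 and very few of the others. NOTCH2 stood at 253, 336 and 232 CPM in the 3 Leptin libraries and 260, 292 and 274 CPM in the 3 Control libraries. The groups overlapped, with a log2 fold change of -0.01 ± 0.14 (SE for fold changes here and below, SD for mean levels; edgeR adjusted p = 0.979). NOTCH1 stood at 84.8, 106 and 88.7 CPM in Leptin libraries and 102, 101 and 101 CPM in Control libraries, so that Leptin replicates 1 and 3 lay below the Control libraries and Leptin replicate 2 above them. The difference came to -0.12 ± 0.11 on the log2 scale (edgeR adjusted p = 0.515). Per length, NOTCH2 averaged 16.4 ± 3.27 FPKM in Leptin and 16.5 ± 0.978 FPKM in Control libraries (SD, n = 3 each), and NOTCH1 7.43 ± 0.896 and 8.10 ± 0.0238 FPKM. NOTCH2 made up 68.3% of the summed receptor FPKM in Leptin and 66.7% in Control libraries. Reads that also map to the NOTCH2NL copies on the same chromosome were not counted, and the 4 copies listed had between 7 and 254 counts each over all libraries, so the NOTCH2 level is uncertain. NOTCH3 and NOTCH4 were too low to test: NOTCH3 lay between 0.0668 and 1.01 CPM in Leptin and between 0.311 and 0.480 CPM in Control libraries. NOTCH4 stood at 0.231, 0.0668 and 0.238 CPM in Leptin libraries and 0.369, 0.559 and 0.540 CPM in Control libraries. In bulk RNA, fewer cells with a transcript and less of it per cell cannot be told apart.

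The ligand transcripts were mostly those of the Jagged genes in both groups. JAG2 averaged 6.23 ± 0.838 FPKM in Leptin and 5.23 ± 0.483 FPKM in Control libraries, and JAG1 5.44 ± 0.862 and 5.32 ± 0.685 FPKM (SD, n = 3 each). Within libraries, JAG2 was above JAG1 in each Leptin library, and among the Control libraries only in replicate 1. In CPM, JAG2 stood at 33.7, 42.3 and 43.6 in Leptin libraries and 34.5, 35.8 and 29.9 in Control libraries. Leptin replicate 1 lay among the Control libraries, and the difference of 0.25 ± 0.13 (log2) missed the threshold (edgeR adjusted p = 0.240). JAG1 ranged from 41.6 to 56.9 CPM in Leptin and from 45.0 to 56.8 CPM in Control libraries (log2 fold change 0.03 ± 0.14, edgeR adjusted p = 0.913). The Delta-like genes DLL1, DLL3 and DLL4 were much lower, and for each of them all Leptin libraries lay above all Control libraries without passing the test. DLL1 stood at 2.25, 2.54 and 3.98 CPM in Leptin libraries and 1.16, 2.24 and 1.38 CPM in Control libraries, the nearest pair almost level (log2 fold change 0.88 ± 0.36, edgeR adjusted p = 0.136). DLL3, an inhibitory ligand that acts inside the cell that makes it, stood at 3.46, 3.07 and 4.51 CPM in Leptin libraries and 2.32, 2.17 and 2.88 CPM in Control libraries (log2 fold change 0.58 ± 0.27, edgeR adjusted p = 0.184). DLL4, best known from blood vessels, stood at 0.749, 0.869 and 1.31 CPM in Leptin libraries and 0.738, 0.621 and 0.180 CPM in Control libraries (log2 fold change 0.91 ± 0.54, edgeR adjusted p = 0.306). With 225 counts for DLL1 and 75 for DLL4 over all 6 libraries, their errors are wide.

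Of the 3 Fringe genes, RFNG (Radical fringe) rose, and LFNG and MFNG did not pass. RFNG (chromosome 17, 82047902 to 82051831, minus strand, hg38) stood at 79.3, 148 and 154 CPM in Leptin libraries and 66.5, 64.6 and 65.2 CPM in Control libraries. Leptin replicates 2 and 3 were more than 2 times as high as any Control library, and Leptin replicate 1 lay a little above them. The level was 1.94-fold higher with leptin (log2 fold change 0.96 ± 0.21, edgeR adjusted p = 0.0205). GPS1 on the opposite strand overlaps 21.6% of the RFNG exon bases, and read pairs over both were not counted. LFNG (Lunatic fringe) stood at 46.5, 29.0 and 44.3 CPM in Leptin libraries and 36.2, 34.8 and 35.4 CPM in Control libraries, with Leptin replicate 2 below and the other two above (log2 fold change 0.17 ± 0.16, edgeR adjusted p = 0.534). MFNG (Manic fringe) was low, at 2.34 to 3.57 CPM in Leptin and 1.93 to 2.69 CPM in Control libraries (log2 fold change 0.43 ± 0.28, edgeR adjusted p = 0.359). Summed per length, the 3 genes came to 45.5 ± 9.47 FPKM in Leptin and 28.0 ± 0.573 FPKM in Control libraries (SD, n = 3 each), and RFNG made up 71.0% of the sum in Leptin and 60.5% in Control libraries. That share was 58.3% in Leptin replicate 1, below every Control library, and 80.6% and 74.0% in Leptin replicates 2 and 3.

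The gamma-secretase subunits showed no call. APH1A, a scaffold subunit, stood at 227, 208 and 247 CPM in Leptin libraries and 220, 221 and 221 CPM in Control libraries, a wider spread with leptin around the same level (log2 fold change 0.04 ± 0.11, edgeR adjusted p = 0.837). NCSTN, which encodes the substrate-docking subunit nicastrin, stood at 88.2, 60.7 and 73.7 CPM in Leptin libraries and 90.6, 91.4 and 91.2 CPM in Control libraries. All Leptin libraries lay below the Control libraries, Leptin replicate 1 by the least, with a log2 fold change of -0.30 ± 0.13 that missed the threshold (edgeR adjusted p = 0.177). PSEN2, a catalytic subunit, lay between 1.90 and 4.55 CPM in Leptin and between 1.69 and 2.52 CPM in Control libraries (log2 fold change 0.67 ± 0.35, edgeR adjusted p = 0.240). Another annotated gene overlaps 38.7% of its exon bases, so its level is uncertain.

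The nuclear complex and Numb genes also stayed without a call. MAML1, a Mastermind coactivator and the most abundant of its group at 11.0 FPKM in Leptin and 10.9 FPKM in Control libraries, stood at 61.4, 67.7 and 67.5 CPM in Leptin libraries and 59.2, 67.3 and 68.4 CPM in Control libraries. The groups overlapped fully (log2 fold change 0.01 ± 0.11, edgeR adjusted p = 0.955). RBPJ averaged 37.6 ± 6.27 CPM in Leptin and 37.0 ± 0.781 CPM in Control libraries (SD, n = 3 each; log2 fold change 0.02 ± 0.13, edgeR adjusted p = 0.930). MAML2 ranged from 16.9 to 28.5 CPM in Leptin and from 23.7 to 27.6 CPM in Control libraries (log2 fold change -0.22 ± 0.18, edgeR adjusted p = 0.466), and MAML3 was too low to test, at 0.401 to 0.692 CPM in Leptin and 0.373 to 1.16 CPM in Control libraries. NUMB, an endocytic adaptor that restrains NOTCH, stood at 196, 180 and 176 CPM in Leptin libraries and 226, 216 and 212 CPM in Control libraries. All Leptin libraries lay below all Control libraries, by -0.25 ± 0.10 on the log2 scale, which missed the threshold (edgeR adjusted p = 0.148). Its relative NUMBL lay on the other side, at 71.2 to 78.2 CPM in Leptin and 57.7 to 67.6 CPM in Control libraries (log2 fold change 0.26 ± 0.11, edgeR adjusted p = 0.149). Summed per length, both genes came to 32.2 ± 1.51 FPKM in Leptin and 33.7 ± 0.115 FPKM in Control libraries, with NUMBL at 40.2% of the sum in Leptin and 32.2% in Control libraries.

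Among the Deltex genes, which encode ubiquitin ligases, DTX1 and DTX4 rose. DTX1 (chromosome 12, 113056730 to 113098028, plus strand) stood at 5.13, 12.5 and 8.14 CPM in Leptin libraries and 4.22, 3.73 and 2.40 CPM in Control libraries. Leptin replicate 1 was nearest to the Control libraries, and the level was 2.47-fold higher with leptin (log2 fold change 1.31 ± 0.32, edgeR adjusted p = 0.0311). DTX4 (chromosome 11, 59171430 to 59208588, plus strand) stood at 39.7, 45.2 and 38.8 CPM in Leptin libraries and 28.7, 32.6 and 27.9 CPM in Control libraries. Here Leptin replicate 1 lay with the other two, and the level was 1.39-fold higher with leptin (log2 fold change 0.47 ± 0.12, edgeR adjusted p = 0.0323). DTX3 was low, at 1.27, 1.54 and 2.02 CPM in Leptin libraries and 0.422, 0.808 and 0.660 CPM in Control libraries. Its groups did not overlap, and the difference of 1.35 ± 0.42 (log2) missed the threshold (edgeR adjusted p = 0.0646). DTX2, the most abundant of the 4 per length, stood at 32.5, 39.8 and 42.8 CPM in Leptin libraries and 33.3, 35.3 and 35.5 CPM in Control libraries, with Leptin replicate 1 lowest of all (log2 fold change 0.14 ± 0.13, edgeR adjusted p = 0.497). DTX2 averaged 7.61 FPKM in Leptin and 6.88 FPKM in Control libraries, and DTX4 6.41 and 4.62 FPKM.

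**Figure D2:**
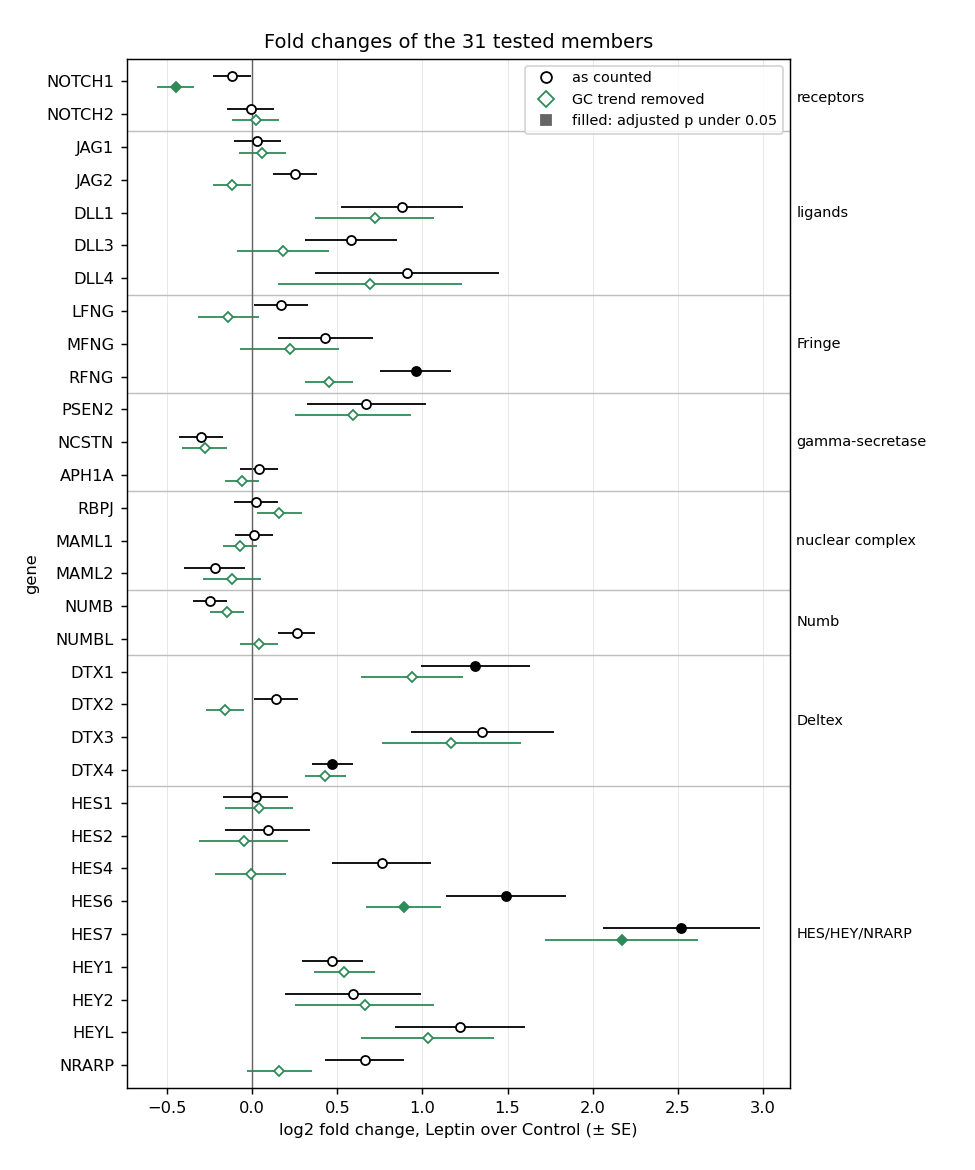
Log2 fold changes of the 31 tested members, Leptin over Control, with their SE, by role; black circles are the values as counted, green diamonds the values after removal of each library's GC trend, and filled symbols have an edgeR adjusted p under 0.05. The 5 filled circles are RFNG, DTX1, DTX4, HES6 and HES7, and the 3 filled diamonds are NOTCH1, on the negative side, HES6 and HES7.

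The HES and HEY genes encode related transcription factors, and NRARP encodes a feedback inhibitor. Several of these genes are known NOTCH targets, but not every one need be, and NOTCH activity itself was not measured. HES6 and HES7 rose, and the other 7 tested had positive fold changes that did not pass, of which HES1 turned negative when scaled by library totals alone and HES2 and HES4 after GC removal. HES6 is an unusual HES protein, known in mouse to oppose HES1 and to favour neuronal differentiation. Its gene (chromosome 2, 238238267 to 238240662, minus strand) stood at 26.3, 61.7 and 80.0 CPM in Leptin libraries and 18.5, 21.1 and 20.3 CPM in Control libraries. Leptin replicates 2 and 3 were far above the Control libraries, and Leptin replicate 1 was 26.3 against a highest Control value of 21.1 CPM. The level was 2.81-fold higher with leptin (log2 fold change 1.49 ± 0.35, edgeR adjusted p = 0.0395). Per length, HES6 averaged 28.7 ± 14.0 FPKM in Leptin and 10.2 ± 0.699 FPKM in Control libraries (SD, n = 3 each), and it made up 41.1% of the group's summed FPKM in Leptin and 26.6% in Control libraries.

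HES7, known in mouse as part of the clock that times segmentation of the embryo, was nearly silent in Control libraries. It had 22, 25 and 36 counts in the Leptin libraries and 7, 4 and 4 counts in the Control libraries. In CPM these were 1.27, 1.67 and 2.14 in Leptin libraries and 0.369, 0.248 and 0.240 in Control libraries, so the groups were far apart and no library stood between them. The level was 5.74-fold higher with leptin (log2 fold change 2.52 ± 0.46, edgeR adjusted p = 0.0102). HES7 (chromosome 17, 8120592 to 8124106, minus strand) reached the minimum count through the Leptin libraries alone, so its presence among the tested genes is tied to its direction. Even so it remained a rare transcript, at 0.900 FPKM on average in Leptin and 0.152 FPKM in Control libraries.

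HES1 was unlike them. It stood at 23.2, 21.4 and 34.6 CPM in Leptin libraries and 24.7, 31.7 and 21.9 CPM in Control libraries, with the lowest and the highest value both in the Leptin group. On the log2 scale the groups differed by 0.02 ± 0.19 (edgeR adjusted p = 0.969). Per length it averaged 12.8 ± 3.47 FPKM in Leptin and 12.7 ± 2.44 FPKM in Control libraries, and with HES6 higher, HES1 made up 19.9% of the summed FPKM of the group in Leptin and 32.6% in Control libraries. HES4, a human HES gene close to HES1 in sequence, stood at 11.2, 12.6 and 26.1 CPM in Leptin libraries and 10.1, 11.2 and 8.10 CPM in Control libraries. Leptin replicate 3 alone stood far above the rest, with a log2 fold change of 0.76 ± 0.29 that missed the threshold (edgeR adjusted p = 0.119). HES2 was low and overlapped, at 4.50, 5.75 and 4.45 CPM in Leptin libraries and 6.01, 4.04 and 3.66 CPM in Control libraries (log2 fold change 0.09 ± 0.25, edgeR adjusted p = 0.846). HES5 was not detected in any of the 6 libraries. A count of 0 allows up to 3 counts here, or 0.173 to 0.2 CPM in Leptin and 0.158 to 0.186 CPM in Control libraries, for counting error only.

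The HEY genes, which encode the partner repressors of the HES proteins, were of low to middling level. HEY1, the most abundant at 3.43 FPKM in Leptin and 2.47 FPKM in Control libraries, stood at 14.1, 21.4 and 21.1 CPM in Leptin libraries and 14.6, 13.7 and 12.4 CPM in Control libraries. Leptin replicate 1 lay among the Control libraries and the other two above them (log2 fold change 0.47 ± 0.18, edgeR adjusted p = 0.109). HEYL stood at 3.75, 3.27 and 2.32 CPM in Leptin libraries and 2.0, 0.745 and 1.20 CPM in Control libraries. Its groups did not overlap, Leptin replicate 1 was here the highest, and the difference of 1.22 ± 0.38 (log2) missed the threshold (edgeR adjusted p = 0.0653), though DESeq2 called it (adjusted p = 0.0272). HEY2 stood at 1.44, 1.40 and 2.91 CPM in Leptin libraries and 1.32, 0.932 and 1.56 CPM in Control libraries (log2 fold change 0.59 ± 0.40, edgeR adjusted p = 0.375). NRARP, a target that feeds back to destabilise the active receptor, stood at 8.76, 11.6 and 14.1 CPM in Leptin libraries and 7.22, 9.26 and 5.34 CPM in Control libraries, with Leptin replicate 1 below the highest Control library (log2 fold change 0.66 ± 0.23, edgeR adjusted p = 0.0947). Summed per length, all 10 genes came to 43.6, 64.8 and 93.8 FPKM in the Leptin libraries and 38.2, 43.6 and 34.2 FPKM in the Control libraries, so Leptin replicate 1 was level with the highest Control library.

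**Figure D3:**
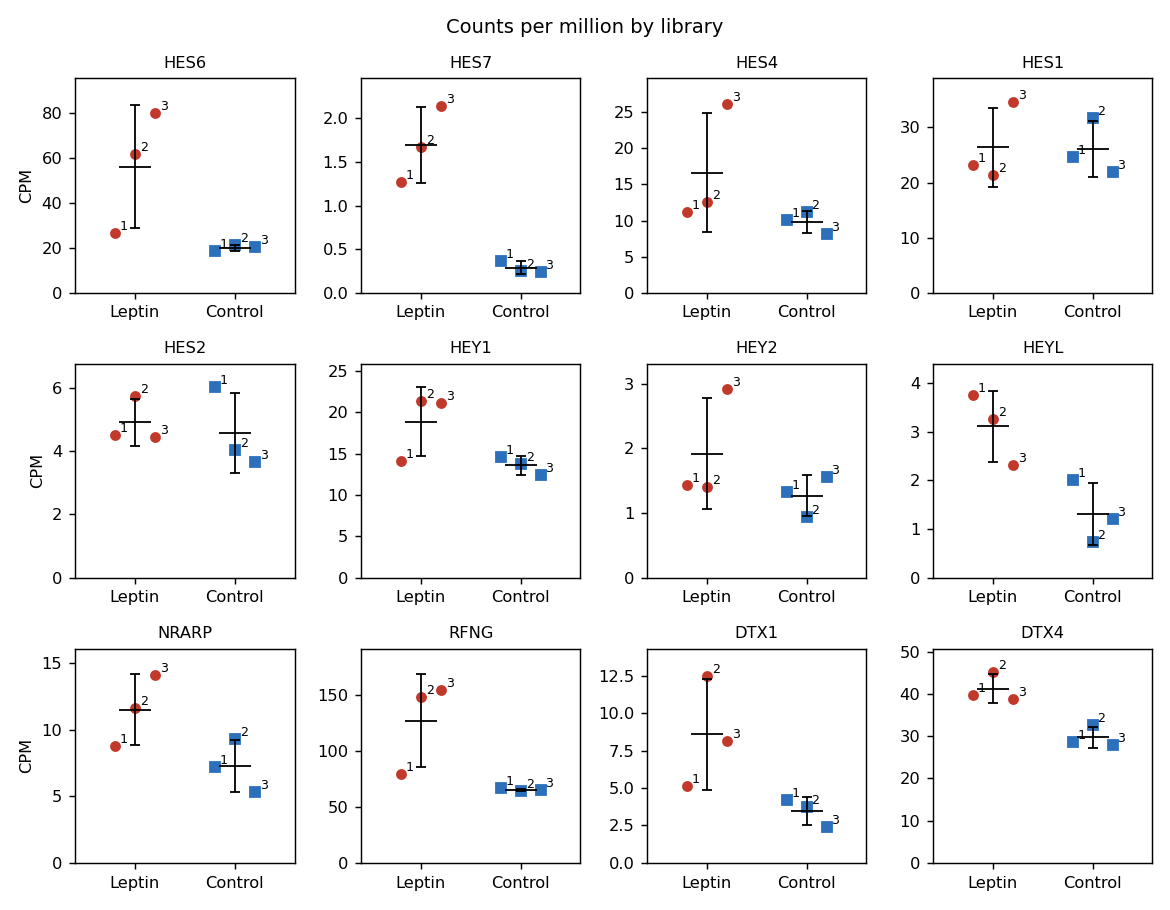
CPM of 12 genes in each library, with the group mean and SD as bars and replicate numbers beside the points, circles for Leptin and squares for Control. For HES6, HES7, RFNG, DTX1 and DTX4 all Leptin libraries lie above all Control libraries. Leptin replicate 1 sits nearest to the Control libraries for HES6, HES7, RFNG and DTX1, and Leptin replicate 3 for DTX4. HES7 stands at 1.27 CPM or more in Leptin and 0.369 CPM or less in Control libraries.

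Set beside each other per length, 20 of the 35 genes were at 1 FPKM or more in every library. The length counts every annotated exon base of a gene, and RFNG lost the read pairs shared with GPS1. The order of genes is therefore approximate. In Leptin libraries the highest were APH1A (65.4 FPKM), RFNG (32.9 ± 10.7) and HES6 (28.7 ± 14.0), of which RFNG and HES6 did not differ beyond their spread. In Control libraries APH1A (63.5 FPKM) was followed by NUMB (22.8) and then by RFNG (16.9) and NOTCH2 (16.5), which did not differ beyond their spread, while HES6, at 10.2 FPKM, lay beside LFNG (10.3) and NUMBL (10.9). Within each Control library NUMBL was above HES6, and the order of HES6 and LFNG varied. NUMB stood at 19.2 FPKM in Leptin libraries, within the spread of NOTCH2 at 16.4 FPKM. The ligands summed to 14.0 ± 1.98 FPKM in Leptin and 12.0 ± 1.14 FPKM in Control libraries, the receptors to 23.9 ± 4.06 and 24.7 ± 0.961 FPKM and the Deltex genes to 16.4 ± 2.07 and 12.5 ± 0.587 FPKM (SD, n = 3 each).

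The pathway reaches beyond these 35 genes, and of 47 further NOTCH genes listed by role, 44 were tested. Of these, 6 rose (13.6%, against 5.71% of all genes) and 1 fell (4.09% of all genes fell). Their median log2 fold change was 0.06, against 0.43 for the 31 members. Among the 6 were 2 of the 4 ligases that ubiquitinate ligands for uptake. NEURL1 (Neuralized) stood at 60.6, 90.1 and 74.9 CPM in Leptin libraries and 37.0, 37.5 and 32.1 CPM in Control libraries, every Leptin library far above the Control libraries (log2 fold change 1.08 ± 0.15, edgeR adjusted p = 0.00356). MIB2 (Mind bomb) stood at 89.6, 209 and 188 CPM in Leptin libraries and 65.1, 70.0 and 57.5 CPM in Control libraries, with Leptin replicate 1 nearest to them (log2 fold change 1.34 ± 0.27, edgeR adjusted p = 0.0219). The other tested ligases of this role, MIB1 and NEURL1B, did not pass. The Groucho-type corepressors TLE3 and TLE2, which HES proteins recruit, averaged 41.4 ± 9.80 and 26.7 ± 5.44 CPM in Leptin libraries, against 23.6 ± 1.42 and 15.9 ± 1.93 CPM in Control libraries (SD, n = 3 each; log2 fold changes 0.81 and 0.75, edgeR adjusted p = 0.0143 and 0.0229). RITA1, which carries RBPJ out of the nucleus, averaged 73.6 ± 4.92 CPM in Leptin and 55.5 ± 1.26 CPM in Control libraries (log2 fold change 0.41, edgeR adjusted p = 0.0337). DLK2, a non-canonical ligand, averaged 20.2 ± 4.30 CPM in Leptin and 12.9 ± 1.51 CPM in Control libraries (log2 fold change 0.65, edgeR adjusted p = 0.0398). NEDD4, a ubiquitin ligase that acts on receptor turnover, fell to 27.4, 33.1 and 28.8 CPM in Leptin libraries, against 40.5, 38.9 and 40.0 CPM in Control libraries (log2 fold change -0.42 ± 0.11, edgeR adjusted p = 0.0427). The call of NEDD4 was lost after GC removal (log2 fold change -0.28, edgeR adjusted p = 0.152). Of the 6 that rose, 5 had a GC content of 60.0% to 68.4%, within the top GC class described next, where 5 of 11 of the further genes (45.5%) passed as higher, against 17.6% of all genes. TLE3 had 56.2% GC, and NEDD4, at 37.7%, lay in the lowest class, where 7.31% of all genes fell. Apart from NEURL1 these calls held without Leptin replicate 1, those of TLE3 and NEDD4 also without Leptin replicate 2, and none without any other library (highest edgeR adjusted p 0.0938 to 0.191).

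The fold changes of the members moved with their GC content. Across the 31 tested genes, which share the same 6 libraries, the Spearman correlation between the GC content of the longest annotated transcript and the log2 fold change was 0.57. Of the 31, 17 lay in the top GC class (58.1% to 74.5% GC, when all tested genes are cut into 5 classes of equal size), and 4 of these passed as higher (23.5%), against 17.6% of all genes of that class. In the same class the median log2 fold change was 0.76 for the 17 genes and 0.30 for all, and the groups were apart with leptin higher for 11 of the 17 (64.7%) and 37.7% of all. HES7, tested through its Leptin libraries alone, is among the 4 and the 11 and raises both shares. Without it the share that passed lies nearer to that of all genes of the class. Of the 14 other members only DTX4, at 53.4% GC, passed, and 6.66% of all genes in its GC class did. HES6 had a GC content of 68.4%, RFNG 66.8%, DTX1 63.6% and HES7 63.3%. HES1, RBPJ and NUMB lay lower, at 49.9%, 38.0% and 44.2%.

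**Figure D4:**
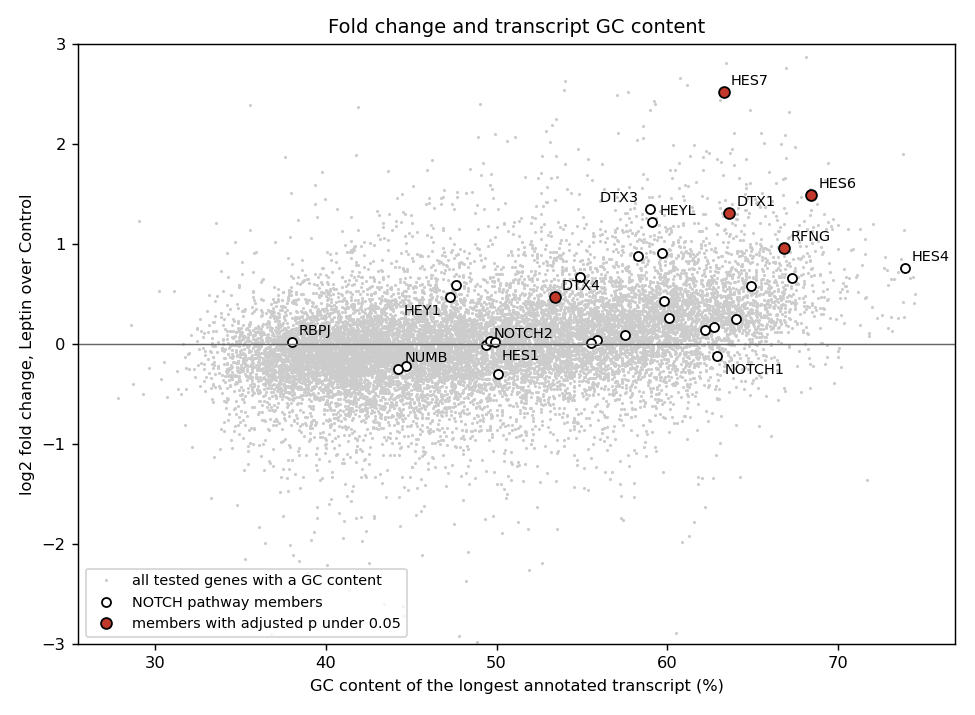
Log2 fold change, Leptin over Control, against the GC content of each gene's longest annotated transcript; grey dots are all tested genes with a known GC content (20 genes beyond a log2 fold change of 3 in either direction are not drawn), open circles the 31 tested members and red circles the 5 that passed. The member values climb with GC content (Spearman correlation 0.57), with HES1, NOTCH2 and RBPJ near 0 and HES6 and HES7 at the upper right.

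The counts themselves had a higher mean GC content in Leptin libraries, at 51.8%, 52.3% and 52.4%, than in Control libraries, at 51.1%, 51.4% and 51.2%. In the top GC class, the median shift of all genes from the Control mean was 0.17, 0.29 and 0.36 in Leptin replicates 1, 2 and 3 on the log2 scale, and that of the 17 members there was 0.39, 0.48 and 0.88. When each library's GC trend was removed, 2 of the 31 genes passed as higher (6.45%, against 2.72% of all genes): HES7, by 2.17 ± 0.45 on the log2 scale (edgeR adjusted p = 0.0218), and HES6, by 0.89 ± 0.22 (edgeR adjusted p = 0.0401). Without HES7, which was tested through its Leptin libraries alone, the count was 1 of 30 (3.33%), near the share of all genes. RFNG came to 0.45 ± 0.14 (adjusted p = 0.0834), DTX1 to 0.94 ± 0.30 (0.0920) and DTX4 to 0.43 ± 0.12 (0.0559) in that fit, and lost their calls. NOTCH1, itself at 62.9% GC, was called lower there, at -0.45 ± 0.11 on the log2 scale (edgeR adjusted p = 0.0372), 1 of 31 (3.23%) against 2.82% of all genes. After GC removal HES6 and HES7 lost their calls when any library other than Leptin replicate 1 was left out besides (edgeR adjusted p from 0.146 to 0.174 for HES6 and from 0.0551 to 0.128 for HES7). NOTCH1 lost its call there without any library other than Leptin replicate 1 or 2 (edgeR adjusted p from 0.126 to 0.186). HES4, with the highest GC content of the members at 73.9%, stood at -0.01 ± 0.21 (log2) after removal (edgeR adjusted p = 0.974). HEY1 and HEY2, at 47.3% and 47.6% GC, had 0.54 and 0.66 after removal and 0.47 and 0.59 before it, and neither passed. The median over the 31 genes was 0.16 and the Spearman correlation was 0.15. Of the further pathway genes, 3 of 44 passed as higher (6.82%, against 2.72% of all genes): NEURL1, MIB2 and TLE3 kept their calls (edgeR adjusted p = 0.0120, 0.0275 and 0.0348), while DLK2 (0.129), TLE2 (0.134) and RITA1 (0.3) lost theirs. Whether the GC trend came with the treatment or with the making of the libraries cannot be told apart, since it runs with the groups.

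The calls also depended on single libraries. With all 6 libraries 5 members passed, and 0 passed without any 1 of the 3 Control libraries or without Leptin replicate 3, where 9 to 11 of 31 or 32 still had an unadjusted p under 0.05 as higher. At that unadjusted p, 10.1%, 12.2% and 10.5% of all genes were higher without Control replicates 1, 2 and 3, and 11.4% without Leptin replicate 3, with no regard to GC content. The share of all genes that passed as higher after adjustment was 0.34%, 1.3% and 0.499% without Control replicates 1, 2 and 3, and 0.909% without Leptin replicate 3. Without Leptin replicate 2, HES7 alone passed (edgeR adjusted p = 0.0316), 1 of 32 (3.12%), near the 2.52% of all genes. Without Leptin replicate 1, the library nearest to the Control libraries, 11 members passed as higher (35.5%, against 16.0% of all genes) and 3 as lower (9.68%, against 13.5%). The 11 were the 5 named above with JAG2, DLL1, DTX3, HES4, HEY1 and NRARP, and the 3 were NCSTN, MAML2 and NUMB. In that fit HES6 was higher by 1.82 (log2, edgeR adjusted p = 8.22e-08) and RFNG by 1.20 (2.23e-07). With GC removal besides, 7 members passed as higher (22.6%, against 12.8% of all genes). JAG2, DLL1, HES4 and NRARP were no longer among them. As lower, 2 passed there, NCSTN and NOTCH1 (6.45%, against 12.1%). HES7, tested through its Leptin libraries alone, is among the 11 and the 7 and raises both shares. Before GC removal, the highest adjusted p over the 6 fits was 0.0742 for HES7, 0.106 for RFNG, 0.147 for HES6, 0.148 for DTX1 and 0.172 for DTX4. The signs did not change: the log2 fold change lay between 2.31 and 2.75 for HES7 and between 1.13 and 1.82 for HES6. HES6 also missed the threshold with limma-voom (adjusted p = 0.0779) and without a filter on low counts (0.245), and DTX1 with limma-voom (0.0568). Without that filter 7 of 34 members passed as higher (20.6%, against 4.5% of all genes), HES4, HEYL and NRARP among them. In that fit all genes with any count enter, also those below the minimum count. The shares are therefore of unlike sets, and their gap is not read as a result. NEURL1 passed in all 6 leave-out fits before GC removal, with a highest adjusted p of 0.0464. With GC removal besides, it passed only without Leptin replicate 1 or 2. MIB2 and TLE3 then passed only without Leptin replicate 1.

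**Figure D5:**
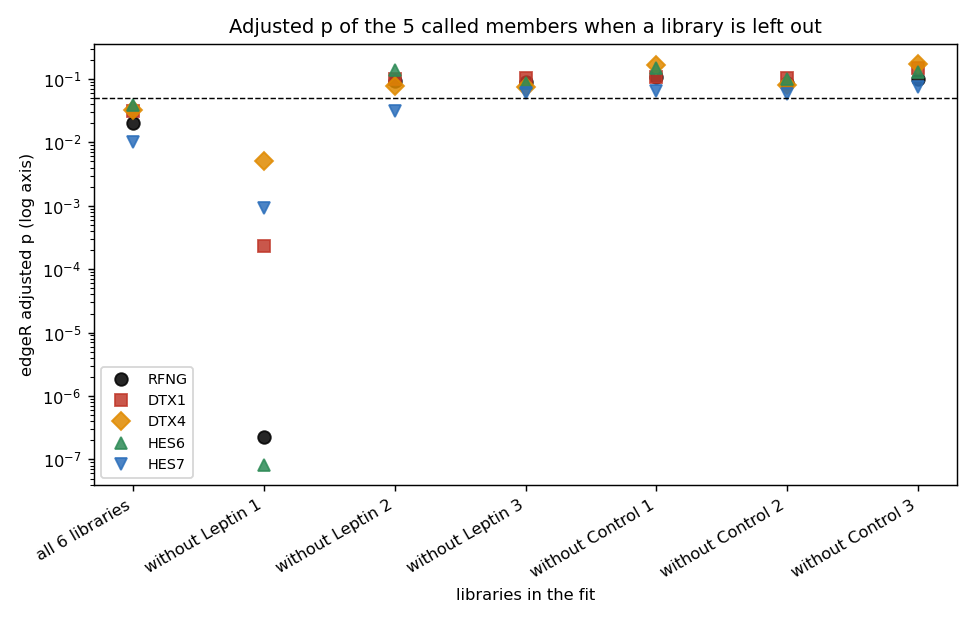
edgeR adjusted p (log axis) of the 5 called members with all 6 libraries and when each library is left out; the dashed line marks 0.05. All 5 lie under the line with all libraries and without Leptin replicate 1, HES7 also without Leptin replicate 2, and none without any Control library or Leptin replicate 3.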

How the data were processed

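RNA sequencing of 3 Leptin and 3 Control OVCAR8 libraries was used. Per the labels' protocols, a directional kit was used on total RNA and the libraries were read in pairs. The authors deposited 1 table of raw counts per library; per the file headers, featureCounts 2.0.1 summed read pairs over the exons of each GENCODE 44 gene, ignoring strand and leaving out pairs that map to several places or overlap several genes. Tools listed in the submitters' processing notes are DESeq2, featureCounts 1.5.0-p3 and HISAT2 2.0.5, with the build hg38. Reads over overlapping genes or copies were therefore lost, whichever strand they came from.

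The counts of all 62700 genes were analysed in R 4.3.3 with edgeR 4.0.16: filterByExpr (minimum count 10, minimum total 15), TMM scaling, a robust quasi-likelihood test with no block for replicate number, and adjustment by Benjamini-Hochberg over the 15685 tested genes at 0.05. Errors of fold changes are SE from the fold change and the F statistic. FPKM is CPM over the exon length in the tables. The GC trend per library (lowess, span 0.3, on the GC content in GENCODE 29, known for 97.2% of tested genes) entered as offsets. Per-library shifts used a pseudocount of 0.5 CPM, and principal components a prior count of 2. DESeq2 1.42.0, limma-voom (limma 3.58.1), other scalings, no filter, a replicate block, an adjusted p under 0.01 and leaving out each library were alternatives. The steps were tested on simulated counts with the same dispersion in both groups and no GC trend. That test does not cover the wider spread of the Leptin libraries or the GC trend seen here. The common biological coefficient of variation was 0.15. No 2 libraries of the same group agreed within sampling noise. The tables held 0 further sample columns.

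The members and lists were chosen with earlier results of these data known. Values per library are given for called members, the most abundant of each role, each tested HES, HEY and NRARP gene, and members with no overlap between groups and a log2 fold change of 0.5 or more in size; NOTCH1, NCSTN and a few others were added after their values were seen. Of the further pathway list all called genes are named. Python 3.11.15 and matplotlib 3.10.9 drew the plots.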

Additional observations from a re-analysis of the deposited data

How the results depend on the processing

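All 6 libraries gave 5 called members. limma-voom gave 3, all higher; removal of the GC trend, with or without the replicate block, gave 3, of which 2 higher and 1 lower; an adjusted p under 0.01 gave 0. Leaving out 1 library, with or without GC removal, gave 0 to 14 called members, 0 to 11 higher and 0 to 3 lower. Of the further pathway genes, 7 passed, 3 with GC removal and with the block besides, 1 at 0.01, and 0 to 14 with a library left out. The Spearman correlation between GC content and fold change across members was 0.57, 0.15 after removal, also with the block, 0.48 to 0.58 with a library left out and 0.04 to 0.21 with both. Same-numbered libraries showed no clear pairing (correlations of their deviations -0.0489, 0.0147 and -0.109), which 3 libraries per group cannot exclude. Leptin replicates 1 and 3 correlated best with Control libraries of other numbers, and Leptin replicate 2 with that of its own number. With a replicate block 5 members and 5 further genes passed, without NEDD4 (edgeR adjusted p = 0.0700) and RITA1 (0.0624). Other scalings and DESeq2 kept every count within 1.5 times. Fold changes near 0 changed sign. With library totals alone they were -0.02 for JAG1, 0.0 for APH1A, -0.02 for RBPJ, -0.03 for MAML1 and -0.03 for HES1. With GC removal, and then with the block, they were 0.02 and 0.01 for NOTCH2, -0.12 and -0.12 for JAG2, -0.14 and -0.17 for LFNG, -0.06 and -0.06 for APH1A, -0.07 and -0.07 for MAML1, -0.16 and -0.16 for DTX2, -0.05 and -0.02 for HES2, and -0.01 and -0.05 for HES4. With a library left out, with or without GC removal, the log2 fold changes ran over these ranges: -0.18 to 0.12 for NOTCH2, -0.06 to 0.20 for JAG1, -0.18 to 0.35 for JAG2, -0.35 to 0.35 for LFNG, -0.11 to 0.10 for APH1A, -0.12 to 0.24 for RBPJ, -0.12 to 0.05 for MAML1, -0.45 to 0.03 for MAML2, -0.01 to 0.31 for NUMBL, -0.20 to 0.24 for DTX2, -0.23 to 0.20 for HES1, -0.19 to 0.35 for HES2 and -0.25 to 0.98 for HES4. The cause of these differences was not tested. Counts limit HES7, DLL4 and DTX3 most.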
